A study of Mus musculus with 44 samples.

Results

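Expression across all genes of the lung was compared between mice that received recombinant human TIMP2 (rTIMP2) from day 0 (n = 5) and mice that received the vehicle HBSS (n = 5), all bearing a tumour under the skin. These 10 of the 44 samples of the series were taken by their labels. TIMP2 is a secreted protein that inhibits matrix metalloproteinases, the enzymes that degrade extracellular matrix, and it also binds integrin at the cell surface. Molecular chaperones, the gene group with the most falls below, are proteins that help others fold. Many of their genes are switched on together by heat shock factor 1 when unfolded proteins build up in a cell.

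All mice were of the strain C57BL6j with the genotype wt. LL/2-Luc2 cells, derived from Lewis lung carcinoma and expressing luciferase, were injected beneath the skin of the dorsal flank, 1000000 per mouse, and the lungs were taken at the stage labelled early metastatic. Treated mice received rTIMP2 daily at 200 µg per kg by intraperitoneal injection. A further group received it from day 7 (n = 4), and its values are set beside the others. The samples' labels give no age, sex, cage or hour of collection. They also do not state that each sample is a separate mouse, so p-values measure the spread between these samples, which may be technical.

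Values are the authors' normalized counts per gene, from poly(A)-selected RNA of a small lung piece. The 10 libraries held 16000000 to 17740000 normalized counts each, and their depth, estimated from the step between low values, was about 15670000 to 17710000 reads. The surfactant gene Sftpc, the defining transcript of alveolar type 2 cells, had 147062 to 193667 normalized counts with rTIMP2 from day 0 and 205729 to 244730 with HBSS. A pair of libraries stood apart. In day 0 replicate 1 the summed level of 15 neutrophil markers was 54807, against 4198 to 12095 in the other day 0 libraries and 4213 to 11717 with HBSS. In HBSS replicate 1 the sum of squamous and basal epithelial markers was 47361 and that of skeletal muscle genes 20700, against at most 1437 and 553.5 in the other HBSS libraries.

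A gene was tested when it reached 10 in at least 5 of the 10 libraries, and called where limma's p, adjusted by Benjamini-Hochberg, was under 0.05. Fold changes are differences of log2(value + 1), rTIMP2 minus HBSS, with their standard error (SE). Group means carry the standard deviation (SD, n = 5 in the day 0 and HBSS groups and n = 4 in the day 7 group), and percents of the HBSS level are back-calculated from the log2 difference. Of 17282 genes tested, 1399 (8.1%) were called: relative to HBSS, rTIMP2 from day 0 had 671 (3.88%) higher and 728 (4.21%) lower genes. The median log2 fold change was 0.49 among the higher genes and -0.42 among the lower ones, against -0.0031 over all genes tested. Past a log2 of 1 in size were 75 of the higher and 69 of the lower genes. The groups' values did not overlap at 513 of the higher and 550 of the lower genes, and at 1571 (9.09%) of all genes tested.

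The number of called genes was 1514 without both libraries that stood apart, 861 without day 0 replicate 4, 871 without HBSS replicate 2 and 911 without HBSS replicate 3. The near-even split between higher and lower genes depended on the scaling. Rescaling the libraries to a common upper quartile moved the median of all genes to 0.0229 and gave 819 higher and 571 lower genes, and voom weights gave 808 higher and 455 lower.

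**Figure D1:**
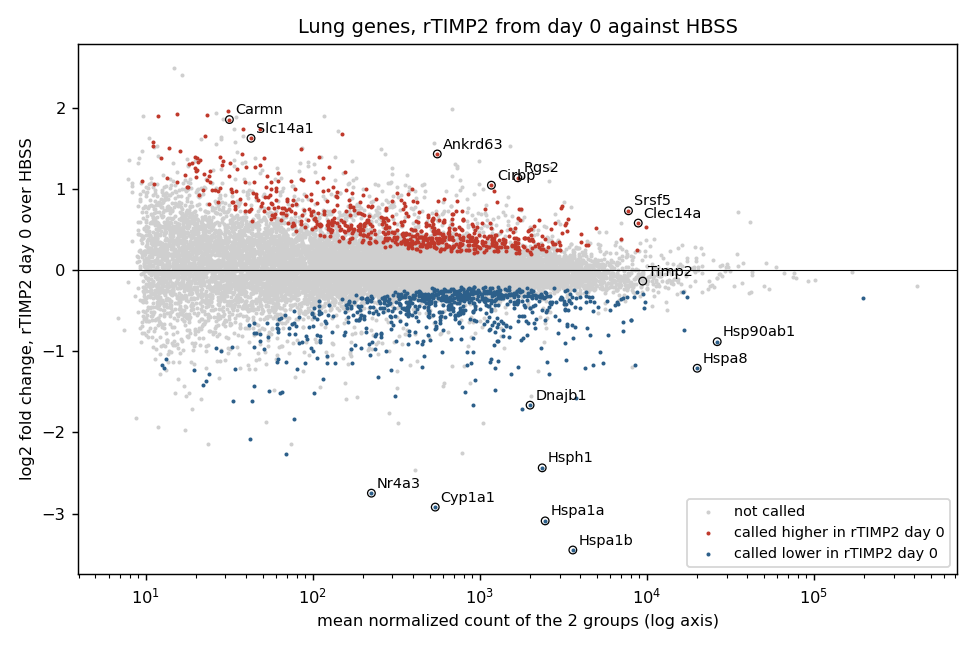
Each point is a tested gene, with its mean normalized count over the rTIMP2 day 0 and HBSS groups (x, log axis) and the log2 fold change of rTIMP2 day 0 over HBSS (y). Coloured points are the 671 genes called higher and the 728 called lower, and named points are described in the text, with Hspa1b and Hspa1a lowest at -3.45 and -3.09.

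The mouse Timp2 transcript, which would not report the injected human protein, was not called. It had 7967, 10755, 8888, 8556 and 8968 normalized counts with rTIMP2 from day 0, against 9484, 10836, 9835, 9852 and 9321 with HBSS (log2 -0.13 ± 0.086 SE, adjusted p = 0.34). The groups overlapped. Over all genes tested 3.88% were higher and 4.21% lower, and 1 lower gene in a list of 32 or 12 is near that share. Among 32 tested genes of TIMPs, metalloproteinases and the inhibitor Reck, 0 were higher and 1 was lower, with a list median of -0.0259. That gene was Adamts9, a secreted metalloproteinase, at 44.6% of the HBSS level, and its call was lost without any single library other than HBSS replicate 1 (highest adjusted p over its alternatives, 0.0771). Among 12 TIMP2 binding partners and signalling genes the called one was Egfr, the epidermal growth factor receptor, which averaged 281.9 ± 64.8 with rTIMP2 from day 0 and 442.3 ± 60 with HBSS (adjusted p = 0.017, limma, and 0.0511 without HBSS replicate 2).

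The reporter transcript Luc2, which the tumour cells carry, was low in every library. It ranged from 16.33 to 44.81 normalized counts with rTIMP2 from day 0 and from 14.28 to 31.3 with HBSS, and it averaged 26.41 ± 11.7 with rTIMP2 from day 0 and 20.51 ± 6.77 with HBSS. The difference of 5.904 was within this spread (two-sided exact permutation test, p = 0.381). A difference of this size in Luc2 was not detectable at these levels. Larger differences were called at some transcripts of similar scarcity, such as Carmn and Slc14a1 below.

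Chaperone transcripts were lower with rTIMP2 from day 0 in the cytosol, the mitochondria and the endoplasmic reticulum. In 7 lists of chaperones outside the endoplasmic reticulum, 34 of 72 tested genes were lower and 0 were higher, beside 4.21% lower over all genes. At all 34 the values of the groups did not overlap, beside 550 of all 728 genes called lower. Calling favours such genes, so the lack of overlap adds no separate support. Over all genes tested, called or not, 4.65% did not overlap in that direction. Of the 72 genes, 67 had a log2 below 0, with a median of -0.277. With upper quartile scaling 33 were lower and 1 higher, and without both libraries that stood apart 33 were lower and 0 higher. The largest falls were in Hspa1b, Hspa1a and Hsph1, and the most abundant falling messages were Hsp90ab1 and Hspa8.

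Heat shock factor 1 binds arrays of the unit GAA in alternating orientation. Promoter windows from RefSeq (build GRCm38.p6), 250 bases before to 50 after an annotated start, were searched for 3 alternating units, either GAA, TTC, GAA or TTC, GAA, TTC, with any 2 bases between units, which covers both strands. Of the 34 lower chaperone genes 30 had a window, and 4 of these (13.3%) held the element: Hsph1, Chordc1, Hspd1 and Hspe1. It was in 1 of 26 uncalled list members with a window (3.85%), and in 65 of 12075 tested genes with a window (0.538%). Counted over windows, of which a gene can have several, it was in 198 of all 32851 (0.603%). The Hspd1 and Hspe1 windows overlap on opposite strands, so they share the match. Shown are the windows of the gene with the largest fall and of 3 with the element, with the element in capitals and overlapping matches joined.
Hspa1b (chr17:34959189-34959488, minus strand, no match): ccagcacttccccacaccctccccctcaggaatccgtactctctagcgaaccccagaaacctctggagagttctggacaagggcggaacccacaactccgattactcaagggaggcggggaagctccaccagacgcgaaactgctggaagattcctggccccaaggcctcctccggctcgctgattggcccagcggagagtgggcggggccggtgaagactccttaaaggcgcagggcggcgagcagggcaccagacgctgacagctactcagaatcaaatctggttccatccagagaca
Hsph1 (chr5:149636266-149636565, minus strand): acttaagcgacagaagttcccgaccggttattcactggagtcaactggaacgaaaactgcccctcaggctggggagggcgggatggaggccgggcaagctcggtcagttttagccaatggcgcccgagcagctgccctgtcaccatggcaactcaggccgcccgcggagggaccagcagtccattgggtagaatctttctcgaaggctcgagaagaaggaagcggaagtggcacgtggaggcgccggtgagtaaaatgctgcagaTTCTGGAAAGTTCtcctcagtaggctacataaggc
Chordc1 (chr9:18292017-18292316, plus strand): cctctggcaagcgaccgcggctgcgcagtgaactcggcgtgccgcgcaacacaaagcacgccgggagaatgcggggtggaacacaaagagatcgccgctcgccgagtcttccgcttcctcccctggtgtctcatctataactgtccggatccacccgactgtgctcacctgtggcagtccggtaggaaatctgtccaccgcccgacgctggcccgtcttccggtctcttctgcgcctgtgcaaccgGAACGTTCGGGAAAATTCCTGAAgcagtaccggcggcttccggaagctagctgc
Hspd1 (chr1:55087883-55088182, minus strand): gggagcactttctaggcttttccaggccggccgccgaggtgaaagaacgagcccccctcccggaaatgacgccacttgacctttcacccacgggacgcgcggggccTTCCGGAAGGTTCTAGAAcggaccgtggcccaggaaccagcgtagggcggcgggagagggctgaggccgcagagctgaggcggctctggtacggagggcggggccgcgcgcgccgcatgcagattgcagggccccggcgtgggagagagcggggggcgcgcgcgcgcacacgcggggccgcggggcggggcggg

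The Hspa1b and Hspa1a windows differ at 4 of 300 bases, and the exact heat shock pattern was in neither. The search allowed no departure from its letters. It therefore does not show that a window without a match lacks heat shock elements. The lower chaperone genes with no window to search were Hspa8, Hsp90aa1, Hsp90ab1 and Cct4. For comparison, the cyclic AMP response element TGACGTCA, a palindrome, was in 0 of the 30 lower chaperone genes with a window. Among all genes with a window it was in 5.59% of those called lower, 2.43% of those called higher and 3.31% of those tested. On the same basis the E-box CACGTG was in 6.67% of the lower chaperone genes. It was in 12.3% of all genes called lower, 10.3% of those called higher and 11% of those tested.

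HSP70 proteins bind exposed hydrophobic stretches of unfolded proteins, and HSP110 proteins exchange their nucleotide. Of 10 tested genes 7 were lower and all 10 had a log2 below 0, with a median of -0.668. Hspa1b, a stress-inducible HSP70, had 377, 636.9, 504, 592.1 and 727.6 normalized counts with rTIMP2 from day 0, against 3530, 9511, 4808, 4800 and 10551 with HBSS. Every HBSS library was above every day 0 library. The day 0 level was 9.16% of the HBSS level (log2 -3.45 ± 0.34 SE, adjusted p = 0.00078). Hspa1a, its neighbour on chromosome 17, was at 11.7% (log2 -3.09 ± 0.33 SE, adjusted p = 0.0012). The genes are near-identical copies whose reads may have been split between them, so their separate values are uncertain.

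Hsph1, an HSP110, had 630.9, 793.2, 637.9, 712.4 and 806.5 normalized counts with rTIMP2 from day 0, against 2785, 5130, 3580, 3029 and 5524 with HBSS (log2 -2.44 ± 0.19 SE, adjusted p = 8.6e-05). The day 0 libraries lay close together and the HBSS libraries were all higher. Hspa8, the constitutive HSP70, averaged 11951 ± 725 with rTIMP2 from day 0 and 28060 ± 5929 with HBSS (log2 -1.21 ± 0.12 SE, adjusted p = 6e-05). The HSP110 relatives Hspa4l and Hspa4 were at 67.4% and 76.1% of the HBSS level, smaller differences than at the inducible genes. The summed level of the 10 genes was 18191 to 20593 with rTIMP2 from day 0 and 36980 to 65195 with HBSS.

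HSP90 matures kinases and steroid hormone receptors with the help of co-chaperones. Of 12 tested genes 8 were lower and all 12 had a log2 below 0, with a median of -0.809. The inducible form Hsp90aa1 averaged 3402 ± 457 with rTIMP2 from day 0 and 7581 ± 1524 with HBSS, and the constitutive form Hsp90ab1 averaged 18436 ± 1248 with rTIMP2 from day 0 and 34292 ± 6217 with HBSS (adjusted p = 0.00026 for each, limma). Stip1, which bridges HSP70 and HSP90, was at 43.7% of the HBSS level and the co-chaperone Chordc1, whose window is shown above, at 46.9%. Fkbp4, an immunophilin of steroid receptor complexes, was at 55.9% and Ptges3, the p23 co-chaperone, at 63.7%. Cacybp, which binds an E3 ubiquitin ligase complex and is in none of the 7 lists, was at 45.3%.

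HSP40 proteins deliver substrates to HSP70 and stimulate its ATPase. Of 11 tested cytosolic members 6 were lower. Dnajb1 had the smallest p of the genes named here: it had 937.6, 1088, 946.2, 887.8 and 905.1 normalized counts with rTIMP2 from day 0, against 2451, 3506, 2900, 2777 and 3588 with HBSS (log2 -1.66 ± 0.1 SE, adjusted p = 1.1e-06). The groups were far apart compared with the spread in each. Dnaja1 was at 33.5%, Dnaja4 at 61.8%, Dnajb4 at 63.4%, Dnajb2 at 75.3% and Dnajb5 at 79.2% of the HBSS level.

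Small heat shock proteins hold unfolded proteins without ATP, and 2 of 6 tested were lower: Hspb1, at 41.2% of the HBSS level, and Hspb8, at 60.8%. Among 10 heat shock factors and BAG proteins, Bag3, a partner of HSPB8 and HSP70, was at 60.2% and Bag2 at 68%. The transcript of Hsf1, the factor named above, averaged 788.9 ± 60.5 with rTIMP2 from day 0 and 813.3 ± 98.4 with HBSS, and was not called (log2 -0.04 ± 0.086 SE, adjusted p = 0.81).

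The cytosolic chaperonin is a ring of CCT subunits that folds actin and tubulin. Of 12 chaperonin and prefoldin genes 6 were lower and all 12 had a log2 below 0, with a median of -0.247. Cct3 averaged 1343 ± 49.2 with rTIMP2 from day 0 and 1858 ± 182 with HBSS (adjusted p = 0.0016, limma). Cct6a was at 74.6%, Cct4 at 77.8%, Cct5 at 80.1% and Cct7 at 81.2% of the HBSS level. In mitochondria 3 of 11 genes were lower, a count of 2 to 3 when single libraries were left out. The matrix pair Hspd1 and Hspe1, the HSP60 chaperonin and its HSP10 partner, were at 56.7% and 55.4% (adjusted p = 7.2e-05 for each, limma). They are the pair whose promoter windows overlap.

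In the endoplasmic reticulum, where secreted proteins fold, 10 of 21 tested chaperone and unfolded-protein-response genes were lower and 1 was higher, with a median log2 of -0.281. Hspa5, the BiP chaperone, had 5914, 6693, 5918, 6668 and 6543 normalized counts with rTIMP2 from day 0, against 8285, 11340, 9320, 8856 and 11066 with HBSS (log2 -0.61 ± 0.094 SE, adjusted p = 0.0014). The ranges did not overlap. Manf was at 65.1%, Creld2 at 68.2%, Sdf2l1 at 72.2%, Herpud1, a factor of protein degradation there, at 73%, and Hyou1, the HSP110 of this compartment, at 74.5% of the HBSS level. Hsp90b1, its HSP90, overlapped between groups (log2 -0.27, adjusted p = 0.082), as did the transcription factor Xbp1 (log2 -0.16, adjusted p = 0.2). The higher gene was Chac1, and the count of higher genes was 0 to 1 when single libraries were left out.

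**Figure D2:**
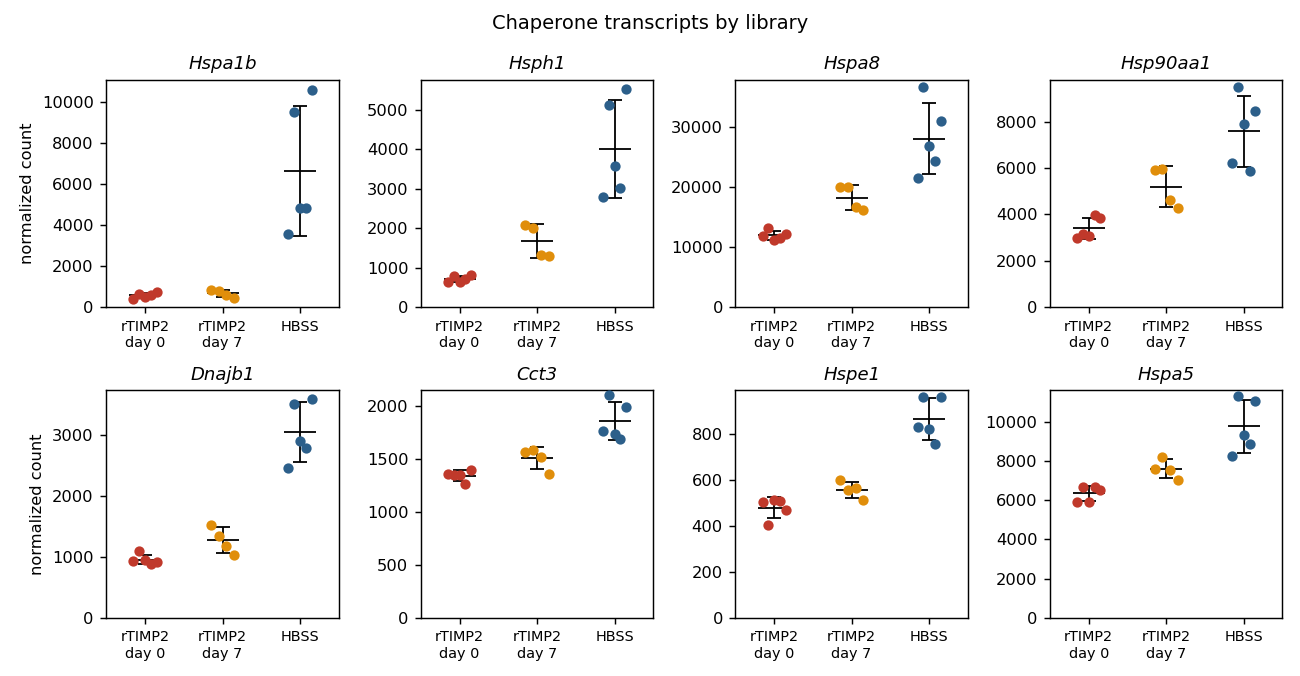
Normalized counts (y) of 8 chaperone genes with each library as a point and the mean ± SD as a bar, for rTIMP2 from day 0 (n = 5), rTIMP2 from day 7 (n = 4) and HBSS (n = 5). In each panel all day 0 points lie below all HBSS points, from Hspa1b (9.16% of HBSS) to Cct3 (72.5%).

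Immediate early genes, which are transcribed within minutes of a stimulus, included more falls than rises. Of 35 tested, 12 were lower and 1 was higher, with a median log2 of -0.188. Nr4a3, an orphan nuclear receptor, had 27.26, 52.81, 58.18, 79.78 and 72.68 normalized counts with rTIMP2 from day 0, against 383.4, 523.8, 445.1, 205 and 394.8 with HBSS (log2 -2.75 ± 0.32 SE, adjusted p = 0.00087). The highest day 0 library was below the lowest HBSS library. The transcription factors Klf4, Maff and Csrnp1 were at 44.7%, 49.9% and 45.9% of the HBSS level. Srf, the serum response factor, averaged 855.5 ± 51.9 with rTIMP2 from day 0 and 1427 ± 108 with HBSS. Ier3 was the higher gene, at 169% (adjusted p = 0.0004, limma). Egr1 varied within HBSS, from 411.8 to 4344, which took in the day 0 range of 2112 to 4004 (adjusted p = 0.33, limma).

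Genes that glucocorticoid hormone is known to induce were lower or not called. Of 16 tested, 8 were lower, 0 were higher and 15 had a log2 below 0, with a median of -0.477. Tsc22d3, the glucocorticoid-induced leucine zipper, had 3860, 3003, 3346, 3221 and 3862 normalized counts with rTIMP2 from day 0, against 5194, 8539, 6777, 7370 and 7043 with HBSS (49.9% of the HBSS level, adjusted p = 0.00018). The groups did not overlap. Cdkn1a, the p21 cell-cycle inhibitor, was at 36%, Errfi1, an inhibitor of the epidermal growth factor receptor, at 43.6%, and Pdk4, which inhibits pyruvate dehydrogenase, at 43.6% of the HBSS level. Per1, a clock gene, was at 62.5% and Nfkbia, the inhibitor of NF-kappa B, at 71.3%. Fkbp5, an immunophilin that the hormone induces, averaged 674.8 ± 163 with rTIMP2 from day 0 and 1188 ± 397 with HBSS and did not pass (log2 -0.78 ± 0.27 SE, adjusted p = 0.11).

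Other called genes with large falls had varied roles. Slc5a3, the myo-inositol transporter that cells raise under osmotic stress, averaged 157.4 ± 32.5 with rTIMP2 from day 0 and 461.4 ± 75.5 with HBSS (log2 -1.55 ± 0.15 SE, adjusted p = 6e-05). Irx1, a homeobox factor of the developing lung, ranged from 1403 to 1737 with rTIMP2 from day 0 and from 2944 to 3762 with HBSS (adjusted p = 7.9e-06, limma). Dusp8, a phosphatase of stress-activated kinases, was at 35.4%, Frmd5 at 35.1%, the transcription factor Sox21 at 35.8% and Gfpt2, of hexosamine synthesis, at 40.1% of the HBSS level. Ccdc117 was at 52.6% and Slc10a6, a transporter of steroid sulfates, at 46.9%.

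Xirp1, a gene of striated muscle, was at 28.1%; it ranged from 18.55 to 62.26 with rTIMP2 from day 0 and from 68.27 to 163.6 with HBSS, and HBSS replicate 1, with the skeletal muscle transcripts, was the highest at 163.6. Arc, an immediate early gene, was at 35.3%, and its call was lost without both libraries that stood apart (adjusted p = 0.0619, limma). Ahr, the aryl hydrocarbon receptor, was higher and its target Cyp1a1 was lower. Ahr averaged 2222 ± 327 with rTIMP2 from day 0 and 1310 ± 85.2 with HBSS (log2 0.75 ± 0.095 SE, adjusted p = 0.00029). Cyp1a1, a cytochrome P450, had 78.86, 71.45, 70.43, 41.74 and 96.58 normalized counts with rTIMP2 from day 0, against 3720, 323.2, 300.2, 440.2 and 266.3 with HBSS (log2 -2.92 ± 0.72 SE, adjusted p = 0.046). Its groups did not overlap, HBSS replicate 1 was far above the rest, and the call was lost without any single library other than that one.

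Among named genes that were higher, Ankrd63, an ankyrin-repeat gene, had the smallest p. It had 903.5, 919.6, 689, 686.5 and 867.2 normalized counts with rTIMP2 from day 0, against 288, 258.1, 294, 360.5 and 296.9 with HBSS (log2 1.43 ± 0.11 SE, adjusted p = 7.9e-06). All day 0 libraries were above all HBSS libraries. Camk2b, a subunit of calmodulin-dependent kinase, averaged 156.4 ± 14 with rTIMP2 from day 0 and 60.72 ± 17.7 with HBSS. Tet1, an enzyme that oxidizes methylated cytosine, averaged 119.3 ± 14 with rTIMP2 from day 0 and 54.78 ± 6.1 with HBSS. Rgs2, which damps G protein signalling, averaged 2329 ± 540 with rTIMP2 from day 0 and 1046 ± 154 with HBSS (adjusted p = 0.00086, limma). The vesicle fusion gene Vamp1 was at 185%, the transporter Slc45a4 at 153% and the zinc finger gene Zfp39 at 172% of the HBSS level.

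The largest rises were in scarce transcripts. Carmn, a long non-coding RNA of smooth muscle, ranged from 26.29 to 62.26 with rTIMP2 from day 0 and from 8.224 to 17.34 with HBSS (log2 1.86 ± 0.28 SE, adjusted p = 0.0011). The urea transporter Slc14a1 ranged from 44.53 to 99.31 with rTIMP2 from day 0 and from 11.22 to 41.14 with HBSS. Prdm8, a zinc finger protein, was at 282%, Upk3bl at 241%, Cd180, a receptor of B cells and myeloid cells, at 232%, and the interleukin receptor Il9r at 224% of the HBSS level. Mirt1, Celsr3 and Arhgap27os3 were also among the 15 largest rises. Each was highest in day 0 replicate 1, and each lost its call without any of HBSS replicates 2 to 5.

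In a list of 20 cold-inducible RNA-binding and splicing genes 2 were higher and 1 was lower, with a median log2 of 0.065. These counts stand beside 3.88% higher and 4.21% lower over all genes tested, and are too few to describe the list. Cirbp, an RNA-binding protein known to rise on mild cooling, had 1888, 1464, 1802, 1412 and 1340 normalized counts with rTIMP2 from day 0, against 943.5, 617.6, 792.6, 776.5 and 691.7 with HBSS (log2 1.05 ± 0.12 SE, adjusted p = 0.00023). Each day 0 library was above each HBSS library. The splicing factor Srsf5 averaged 9637 ± 673 with rTIMP2 from day 0 and 5882 ± 1110 with HBSS, and the splicing factor Tra2b was at 75%. Rbm3, the other well-known cold-inducible gene, averaged 2549 ± 280 with rTIMP2 from day 0 and 2234 ± 154 with HBSS and was not called (log2 0.19 ± 0.083 SE, adjusted p = 0.17).

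Some genes expressed in blood vessels were higher. Clec14a, a lectin of endothelial cells, ranged from 9946 to 11683 with rTIMP2 from day 0 and from 6670 to 7635 with HBSS (log2 0.58 ± 0.072 SE, adjusted p = 0.00026). Gja4, the endothelial connexin 37, was at 179%, and Glp1r, the receptor of glucagon-like peptide 1, at 171% of the HBSS level. None of these 3 is in the list of endothelial markers. Of its 24 tested members 1 was higher (beside 3.88% of all genes tested), the venous factor Nr2f2 (127%), and 2 were lower, the arterial connexin Gja5 (75.7%) and the flow-responsive factor Klf2 (57.7%), with a list median of 0.0127. The higher count was 1 to 3 and the lower count 2 to 3 without single libraries. In such bulk samples fewer cells of a type and less RNA per cell cannot be told apart.

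**Figure D3:**
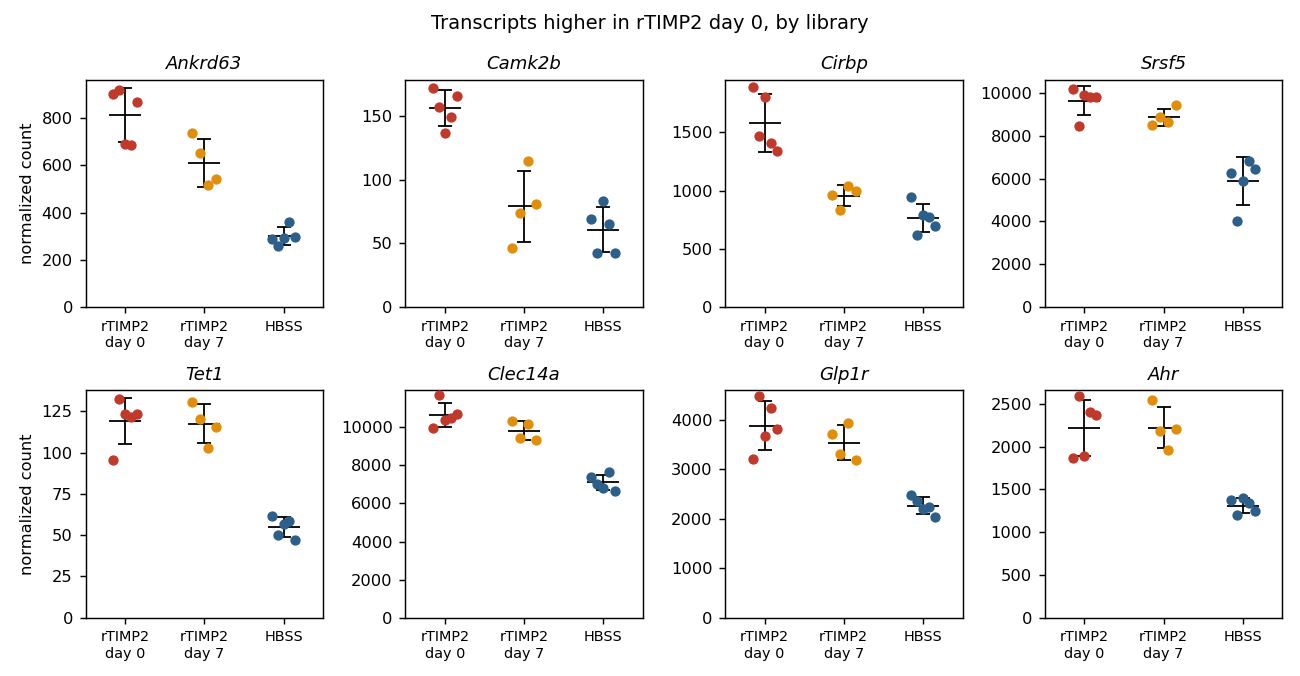
Normalized counts (y) of 8 genes called higher with each library as a point and the mean ± SD as a bar, for rTIMP2 from day 0 (n = 5), rTIMP2 from day 7 (n = 4) and HBSS (n = 5). In each panel all day 0 points lie above all HBSS points, from Clec14a (150% of HBSS) to Ankrd63 (270%).

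Long non-coding and unclassified genes were called mostly upward. Of 1340 tested, 103 (7.69%) were higher and 9 (0.672%) lower, and 1033 had a log2 above 0, with a median of 0.276. The median lay between 0.204 and 0.322 under the alternatives. The 103 became 61 without HBSS replicate 2 and 62, 64 and 66 without day 0 replicates 4, 3 and 5. Among 14589 protein-coding genes 552 were higher and 679 lower, a balance that turned to 691 higher and 532 lower with upper quartile scaling and to 685 and 424 with voom weights. The long non-coding class took 1.29 to 1.38% of each day 0 library's total, 1.19 to 1.5% of each day 7 library and 0.727 to 1.19% of each HBSS library.

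Malat1 and Neat1, abundant nuclear RNAs chosen after their values were seen, were not called. Malat1 had 41465, 40567, 41227, 42354 and 46307 normalized counts with rTIMP2 from day 0, against 19693, 14040, 28198, 36702 and 39105 with HBSS (log2 0.72 ± 0.26 SE, adjusted p = 0.11). The HBSS libraries spread widely and lay below all day 0 libraries. Neat1 ranged from 42435 to 56316 with rTIMP2 from day 0 and from 19380 to 42530 with HBSS (adjusted p = 0.079, limma). Protein-coding genes also differed by exonic length, on the deposited scale. In the shortest of 4 equal groups, up to 2768 bases, 1.68% were higher and 4.78% lower, against 5.06% higher and 3.68% lower in the longest, from 6754 bases.

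**Figure D4:**
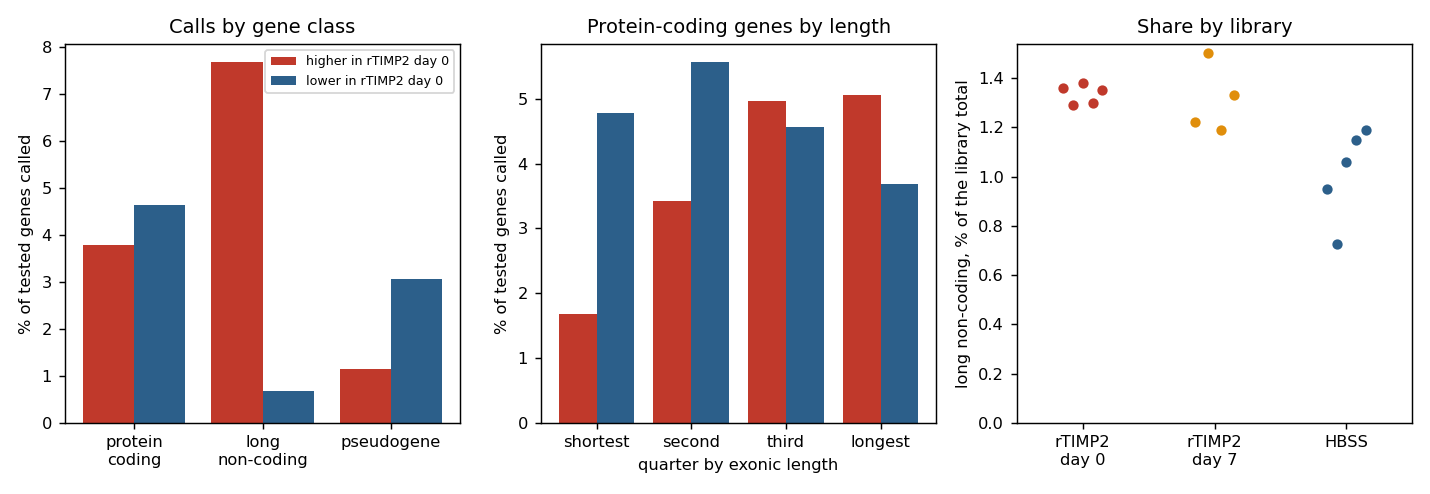
Left and middle, percent of tested genes called higher or lower with rTIMP2 from day 0 (bars), by gene class and by exonic length of protein-coding genes, in 4 equal groups. Right, share of the library total in long non-coding genes, 1 point per library, with day 0 at 1.29 to 1.38% and HBSS at 0.727 to 1.19%.

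Some markers of lung epithelium were lower. Of 16 alveolar type 2 markers 4 were lower, beside 4.21% of all genes tested. A log2 below 0 was found at 15 of them, with a list median of -0.25. The number called lower was 2 without day 0 replicate 4, HBSS replicate 2 or HBSS replicate 3. Surfactant protein D, Sftpd, ranged from 7907 to 9731 with rTIMP2 from day 0 and from 10795 to 11385 with HBSS (log2 -0.39 ± 0.075 SE, adjusted p = 0.0065), and the desaturase Scd1 averaged 12530 ± 2599 with rTIMP2 from day 0 and 20840 ± 3876 with HBSS. Sftpc was at 78.6% of the HBSS level, a call that 11 of 20 alternatives did not keep. Of 16 airway markers 1 was lower, Foxj1, the factor that switches on motile cilia genes, at 65.3%. All 16 airway markers had a log2 below 0, with a list median of -0.215. Of 14 alveolar type 1 markers 1 was lower, with a median of -0.0769. In lists of this size 1 lower gene is close to the 4.21% over all genes.

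Single genes of matrix, calcium handling and signalling were lower too. The calcium and calmodulin list, to which Camk2b above belongs, held 3 higher and 3 lower of 24, with a median log2 of -0.00892. The collagen prolyl hydroxylases P4ha1 and P4ha2 were at 56.1% and 65.4% of the HBSS level and Loxl1, a matrix crosslinker, at 75.6%. The calcineurin inhibitor Rcan1 averaged 743.4 ± 21.9 with rTIMP2 from day 0 and 1147 ± 67.5 with HBSS, and Atp2a2, the calcium pump of the endoplasmic reticulum, averaged 6388 ± 598 with rTIMP2 from day 0 and 9744 ± 1035 with HBSS. The keratin Krt8 was at 71.4%, the growth factor Areg at 45.2%, the alarmin Il33 at 64.8%, the urokinase receptor Plaur at 62.4% and the sodium pump subunit Atp1b1 at 78%. Pdk1, a pyruvate dehydrogenase kinase, was higher, at 126%. Of 21 oxidative phosphorylation genes 0 were called in limma, 13 had an unadjusted p under 0.05 and all 21 had a log2 below 0, with a median of -0.192.

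Immune lists held few called genes with all libraries included, beside 3.88% higher and 4.21% lower over all genes tested. Of 22 T cell markers 1 was higher, Tcf7, a factor of naive and memory T cells, which averaged 585.7 ± 45.9 with rTIMP2 from day 0 and 445.2 ± 36.7 with HBSS, and 21 had a log2 above 0 with a median of 0.341. The count of higher T cell markers was 1 to 4 without single libraries. Of 15 dendritic cell markers 2 were higher and 0 lower, and 5 had a log2 below 0, with a median of 0.0859. Clec9a, a receptor of cross-presenting cells and 1 of the 2 higher genes, was at 131%. The higher dendritic count was 1 to 2 without single libraries. Of 15 neutrophil markers 0 were called in limma and 0 had an unadjusted p under 0.05, and their median log2 was 0.946, or 0.229 without both libraries that stood apart. For 7 skeletal muscle genes the median was -1.39, or -0.0974 without that pair, and for 11 mesothelial genes it was -1.22, or -0.789. Has1, a hyaluronan synthase, was at 20.8% of the HBSS level, with overlapping groups. The part of these tissues in other results was not tested.

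**Figure D5:**
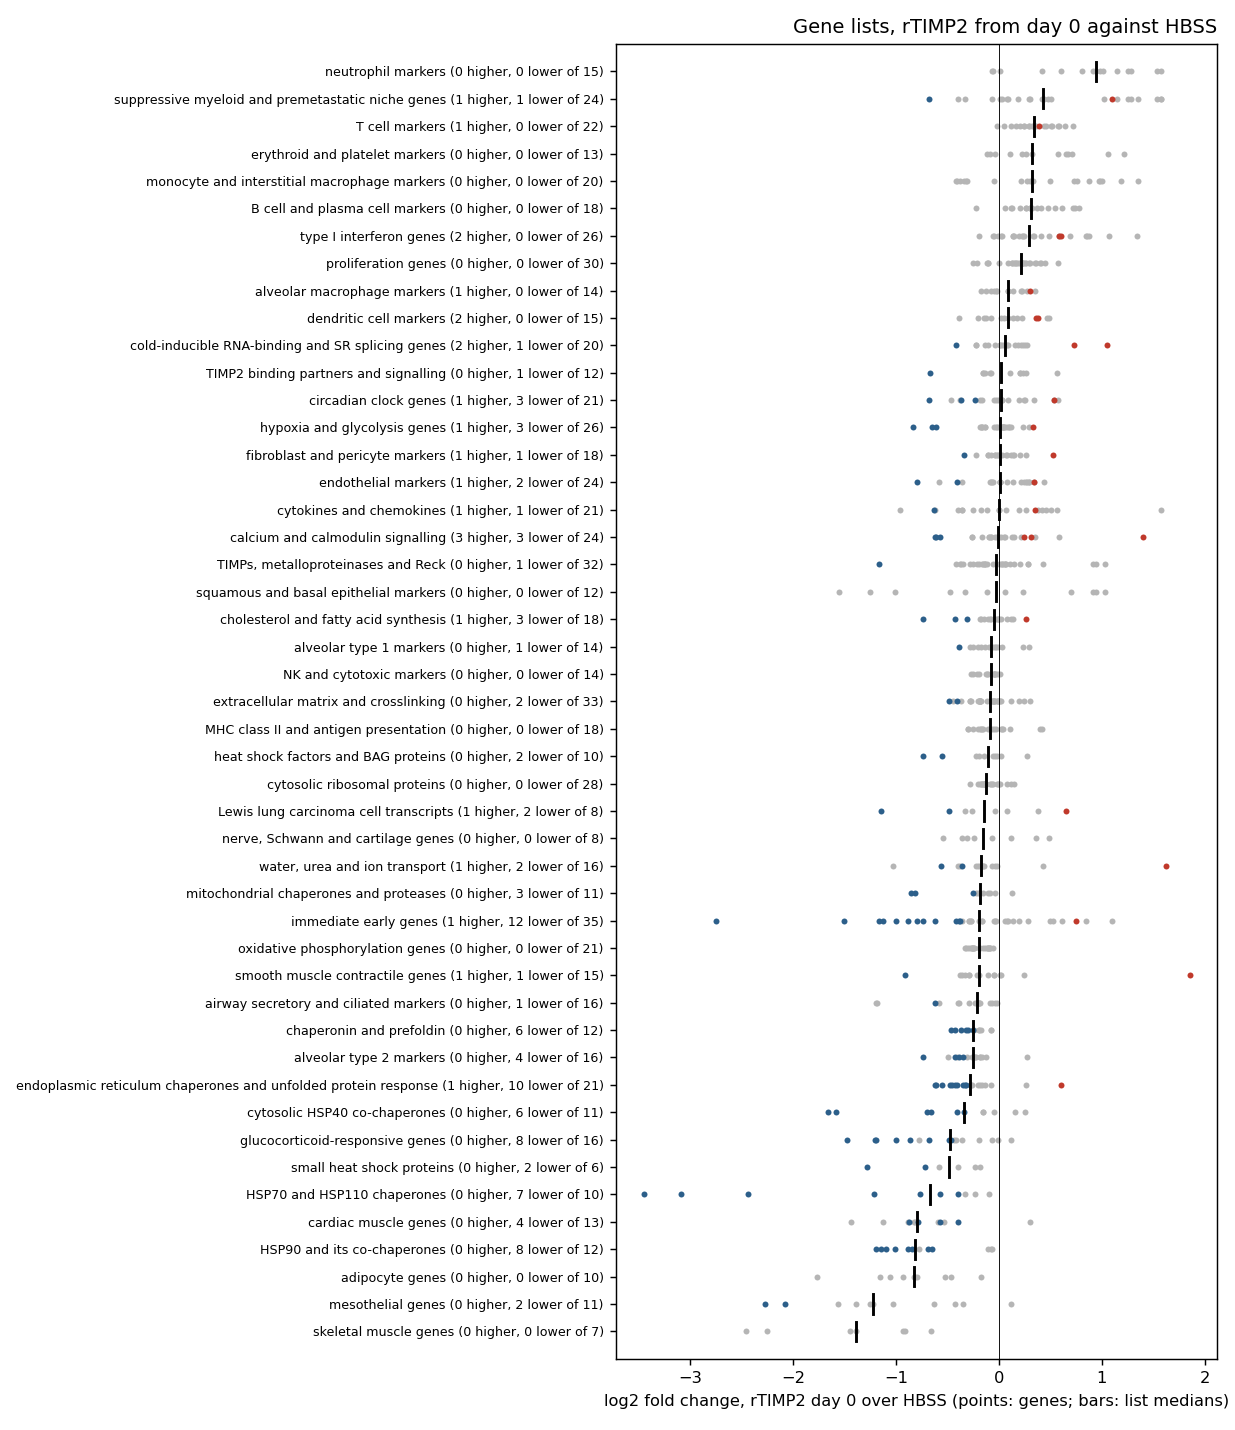
Log2 fold change of rTIMP2 from day 0 over HBSS (x) for the tested members of 47 gene lists (rows), coloured by call, with the list median marked. The HSP90, HSP70, small heat shock protein, glucocorticoid-responsive and HSP40 lists have medians of -0.809, -0.668, -0.487, -0.477 and -0.336.

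Few genes were called between the starting days. Of 17481 genes tested with the day 0 start against the day 7 start, 41 (0.235%) were called, 14 (0.0801%) higher and 27 (0.154%) lower. The 7 chaperone lists held 8 lower genes of 72 and 0 higher. Hspa8 averaged 11951 ± 725 with the day 0 start and 18222 ± 2106 with the day 7 start (log2 -0.60 ± 0.084 SE, adjusted p = 0.0069, limma). Chordc1 averaged 739.2 ± 53.7 with the day 0 start and 1063 ± 29.5 with the day 7 start, and Cacybp averaged 543.3 ± 25.1 with the day 0 start and 740.7 ± 48.3 with the day 7 start. Pde4b, which degrades cyclic AMP, averaged 1398 ± 128 with the day 0 start and 2481 ± 286 with the day 7 start. Fam107a and Ccdc117 were lower as well. On the higher side, Cirbp averaged 1581 ± 247 with the day 0 start and 955.4 ± 88.9 with the day 7 start, Nfkbiz, a regulator of NF-kappa B, averaged 604.7 ± 79.2 with the day 0 start and 371.4 ± 34.4 with the day 7 start, and the immediate early gene Ier2 averaged 2350 ± 302 with the day 0 start and 1307 ± 125 with the day 7 start. Egr1 and Adssl1, a gene of purine metabolism, were higher too.

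The 41 genes rested on few libraries. The count was 8 and 10 without day 7 replicates 2 and 1, 16 and 25 without day 0 replicates 3 and 4, 19 without day 7 replicate 3 and 65 without day 0 replicate 1. It was 0 in limma without the variance trend and robust moderation, against 2249 genes (12.9%) at an unadjusted p under 0.05 with both, and 22 with voom weights.

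Against the same HBSS libraries, rTIMP2 from day 7 gave 1805 called genes of 17389 (10.4%). Both comparisons share their controls, so their values are set side by side without a test. With the day 7 start 30 of the 72 chaperone genes were lower and 1 was higher than with HBSS, with a median log2 of -0.251. Of 35 immediate early genes 13 were lower and 1 was higher with that start, with a median of -0.576. Of the 34 chaperone genes lower with the day 0 start, 33 had a day 7 mean between the day 0 and HBSS means. They were chosen by low day 0 values against these HBSS libraries, which favours that order. The exception, Hspa1a, averaged 503.8 ± 165 with the day 0 start and 459.1 ± 135 with the day 7 start. Hspa1b averaged 567.5 ± 134 with the day 0 start, 659.1 ± 175 with the day 7 start and 6640 ± 3161 with HBSS. Hsph1 averaged 716.2 ± 82.9 with the day 0 start, 1682 ± 425 with the day 7 start and 4009 ± 1244 with HBSS. Ahr averaged 2222 ± 327 with the day 0 start, 2221 ± 238 with the day 7 start and 1310 ± 85.2 with HBSS. Camk2b averaged 156.4 ± 14 with the day 0 start, 79.13 ± 28.2 with the day 7 start and 60.72 ± 17.7 with HBSS, and its difference between starting days did not pass (adjusted p = 0.051, limma).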

How the data were processed

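Poly(A)-selected RNA of minced lung pieces was sequenced in 10 libraries compared here and 4 more of the day 7 start. The authors deposited normalized counts per gene, a signal with no fixed unit. Bowtie2, STAR, DESeq2, Partek and the build mm10 are named in the submitters' processing notes, without versions or roles. Of the low values 80.8 to 82.3% were whole multiples of a step (tolerance 0.02, up to 20 steps), so read counts were not recovered and no count model was used. Depth was estimated from that step.

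For each gene, limma 3.58.1 (R 4.3.3) was run on log2(value + 1) with a variance trend and robust moderation, using only the groups compared and genes at 10 or more in as many samples as the smaller group. P-values were adjusted over all genes tested. The procedure was tested on simulated data. Luc2 was compared by an exact permutation test. Alternatives changed the pseudocount, filter, scaling, weights, variance model, groups in the fit and the libraries included. Genes were matched to GENCODE M21 (99.7% of 24150).

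Named genes were the targets, the 15 largest rises and falls and the 10 of smallest p in each direction among called genes with non-overlapping groups and a higher mean of at least 50, then up to 6 called and up to 2 uncalled members per list, and 6 genes in each direction between starting days. Some genes that the rule names are not reported here. The comparison, members, lists and rule were chosen with earlier results of these data known. Malat1, Neat1, S100a9, Krt13 and Acta1 were chosen after their values were seen.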

Additional observations from a re-analysis of the deposited data

Results flagged for a closer look

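In each group of libraries the value farthest from the rest was compared with the group's range for the genes and marker sums used here. For the genes given below between starting days, the day 7 group (n = 4) was examined too. Of 280 groups examined 24 held such a library. Chance gives about 1 in 20 for a single group. The genes were chosen from these data and share libraries, so that rate is no measure for this count. Day 0 replicate 1 was far above the other day 0 libraries for Sdf2l1 (348.5), Plaur (1113), Mirt1 (530), Celsr3 (164.5), Arhgap27os3 (90.54), Adssl1 (587.1), the neutrophil gene S100a9 (16484) and the sum of neutrophil markers (54807). It was far below them for the sum of mesothelial genes (5044). HBSS replicate 1 was far above the other HBSS libraries for Cyp1a1 (3720), Lor (10204), the keratin Krt13 (21178), the skeletal actin Acta1 (7526), the sum of squamous and basal epithelial markers (47361) and the sum of skeletal muscle genes (20700). It was far below them for Maff (851.9) and Slc10a6 (411.4).

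The other values were scattered over libraries. Day 0 replicate 2 was low for Srsf5 (8464) and Nfkbiz (466). Day 0 replicate 3 was high for Atp2a2 (7442). Day 0 replicate 5 was high for Has1 (63.72) and low for Acta1 (7.965). HBSS replicate 4 was low for Has1 (55.54), and HBSS replicate 5 was high for Zfp39 (188.7).

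The effect of the starting day was tested directly in limma, and the 6 called genes of smallest p in each direction are given here. With the day 0 start over the day 7 start, the log2 fold change was 0.84 for Ier2, 0.70 for Nfkbiz, 0.72 for Cirbp, 2.08 for Lor, 1.91 for Egr1 and 0.65 for Adssl1. It was -0.82 for Pde4b, -0.53 for Chordc1, -0.90 for Fam107a, -0.46 for Ccdc117, -0.60 for Hspa8 and -0.45 for Cacybp. None of these 12 passed without the variance trend and robust moderation. Lor was at 13.94 to 45.56 with the day 0 start and 3.349 to 7.588 with the day 7 start, so it passed the filter of 10 through the day 0 libraries alone and its call supports nothing.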

How the results depend on the processing

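The 1399 genes called between rTIMP2 from day 0 and HBSS became 2298 when all 3 groups were fitted together, and 861 to 1453 when single libraries were left out. The other alternatives gave 1008 to 1514, the last without both libraries that stood apart, a choice made after seeing the data. The 41 genes called between starting days became 22 with voom weights, 0 without variance trend and robust moderation, and 8 to 65 without single libraries. The causes were not tested. The Luc2 difference of 5.904 ranged from 1.306 to 8.603 without single libraries.

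Replicate numbers did not pair the samples: same-numbered deviations correlated at -0.103 to 0.0101. With the replicate number as a block, 1008 genes were called against HBSS and 22 between starting days.

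Of 109 named genes called against HBSS, 97 were called under all 20 alternatives and 12 were lost under at least 1. Of 17 not called, 3 passed under at least 1, and 0 genes reversed while called. At transcripts as scarce as Luc2 small differences were not detectable.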

Other observations

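Lists of other pathways and cell types also held called genes between rTIMP2 from day 0 and HBSS. Their counts stand beside 3.88% higher and 4.21% lower over all genes tested. Of 21 clock genes 1 was higher and 3 were lower, of 26 hypoxia and glycolysis genes 1 and 3, of 18 cholesterol and fatty acid synthesis genes 1 and 3, and of 24 calcium and calmodulin genes 3 and 3. Without single libraries these counts were 1 to 4 and 1 to 3 for clock genes, 1 to 2 and 2 to 3 for hypoxia genes, 0 to 1 and 1 to 3 for cholesterol genes, and 1 to 3 and 3 for calcium genes. Of 26 type I interferon genes 2 were higher and 0 lower, with a median log2 of 0.29, and 0 to 3 were higher without single libraries. Of 33 extracellular matrix genes 0 were higher and 2 lower, and 1 to 3 were lower without single libraries.

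Leukocyte lists beyond those in the text had 0 to 1 genes called higher and 0 to 1 lower. These counts depended on single libraries. Leaving 1 out gave 0 to 9 higher B cell and plasma cell markers and 0 to 3 higher monocyte markers. It gave 0 to 2 higher genes in the suppressive myeloid and the alveolar macrophage lists. In the B cell and plasma cell list 9 were higher without both libraries that stood apart. The median log2 was 0.318 for 20 monocyte and interstitial macrophage markers, 0.432 for 24 genes of suppressive myeloid cells and the premetastatic niche, 0.314 for 18 B cell and plasma cell markers and 0.0912 for 14 alveolar macrophage markers. Without both libraries that stood apart these medians were 0.148, 0.262, 0.513 and 0.064, in the same order. Without single libraries they ranged from 0.215 to 0.494, 0.255 to 0.625, 0.222 to 0.511 and 0.0344 to 0.129. In limma 0 monocyte markers were called and 10 had an unadjusted p under 0.05. Of 30 proliferation genes 0 were called, with 3 at an unadjusted p under 0.05 and a median of 0.218. Of 28 cytosolic ribosomal protein genes 0 were called, with 1 at an unadjusted p under 0.05 and a median of -0.127. Of 8 tested transcripts listed for Lewis lung carcinoma cells 1 was higher (Igf2bp1) and 2 were lower (Krt8 and Areg), with a median of -0.148. Without single libraries 0 to 1 were higher and 2 to 3 lower.

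Of 13 cardiac muscle genes 0 were higher and 4 lower, with a median log2 of -0.791. That count was 1 to 10 without single libraries and 0 without both libraries that stood apart. The summed level of the cardiac genes was 8721 to 17118 with rTIMP2 from day 0 and 12907 to 24091 with HBSS.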
